A study of Arabidopsis thaliana with 12 samples.

Results

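Shoots of Arabidopsis thaliana seedlings carrying a clf mutation were compared with shoots of the Col wild type, both kept on deficient iron, across every gene of the deposited count table. The comparison used 6 of the 12 libraries of the series, 3 clf and 3 wild type, chosen by genotype and iron supply. The other 6 libraries came from the same genotypes on sufficient iron and served here for the shared estimate of spread and for values given side by side. Seedlings were 12 days on B5 medium before 3 days on the iron medium, in 16 h light and 8 h dark at 22 °C. The clf allele is not given in the sources used here, nor is the number of plants in a library. The labels do not say whether the 3 replicates of a group were grown apart, so each p-value sets a difference against a spread between samples that may be only technical. Sample titles and source names call the tissue shoot, while a characteristics field and the extraction protocol call it root. Summed over 11 leaf markers, which include the small subunits of Rubisco, the level ran from 44330 to 55100 CPM (counts scaled to the library's size) in the 6 libraries, and summed over 21 root markers it ran from 338 to 559 CPM.

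CLF (CURLY LEAF) is a histone methyltransferase, the catalytic subunit of Polycomb repressive complex 2, which places a repressive methyl mark on histone H3. In leaves the complex keeps floral homeotic genes and FT silent, and clf plants are known for curled leaves and early flowering. SWN is a related methyltransferase with a partly overlapping role. On low iron, a leaf raises the transcripts of bHLH factors and of iron carriers, and lowers those of ferritins and of other proteins that hold iron.

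Depth on deficient iron ran from 21297005 to 29400813 counts per library, and 19148 of 32678 genes passed the filter on low counts. In each group 1 library stood apart in clock genes: the evening gene TOC1 was at 33.2 CPM in wild type library 2 and 30.2 CPM in clf library 3, against 9.44 to 11.5 CPM in the other 4 libraries on deficient iron. LHY, a morning gene, was lowest in the same libraries, at 231 and 163 CPM, against 330.1 to 443 CPM. These libraries fall one in each genotype, and calls were also made without them and with a term for them.

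The floral genes AG and SEP3, the flowering signal FT and the homeodomain genes HB21, HB40 and HB54 were among the 12 largest increases in clf, and fewer decreases than increases were of large size. With edgeR's quasi-likelihood test and Benjamini-Hochberg adjustment, 1239 of 19148 genes differed at an adjusted p under 0.05, which is 6.47% of those tested. Of these, 768 genes (4.01%) were higher in clf and 471 genes (2.46%) were lower. At least a 2-fold difference was reached by 482 of the genes called higher and 163 of those called lower. Among the 768 genes higher in clf, 189 had a wild-type mean under 1 CPM (24.6%, against 10.9% of all genes tested), and 17 had no count in the 3 wild-type libraries. Of all genes tested, 19 had no count there. Such genes passed the filter on low counts only through another group, so these shares depend on the filter. Differences of at least 16-fold were found for 87 of the genes called higher and 5 of the genes called lower. The groups did not overlap for any of the 768 genes called higher and for 470 of the 471 called lower. Of all genes tested, 12.7% lay above wild type in clf without overlap and 12.3% below. Lack of overlap in a called gene is therefore no further support for its call. Scaling by library totals in place of TMM factors moved the split from 62% to 75% of calls higher (809 higher, 269 lower), while the median over all genes tested (log2) moved from -0.01 to 0.04. Without the 4 libraries that stood apart in clock genes, 3220 of 19106 genes tested were called, 1754 higher and 1466 lower. DESeq2 called 1158 of 19148 genes higher and 845 lower. Counts of list members in these 2 fits are to be read beside these totals.

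**Figure D1:**
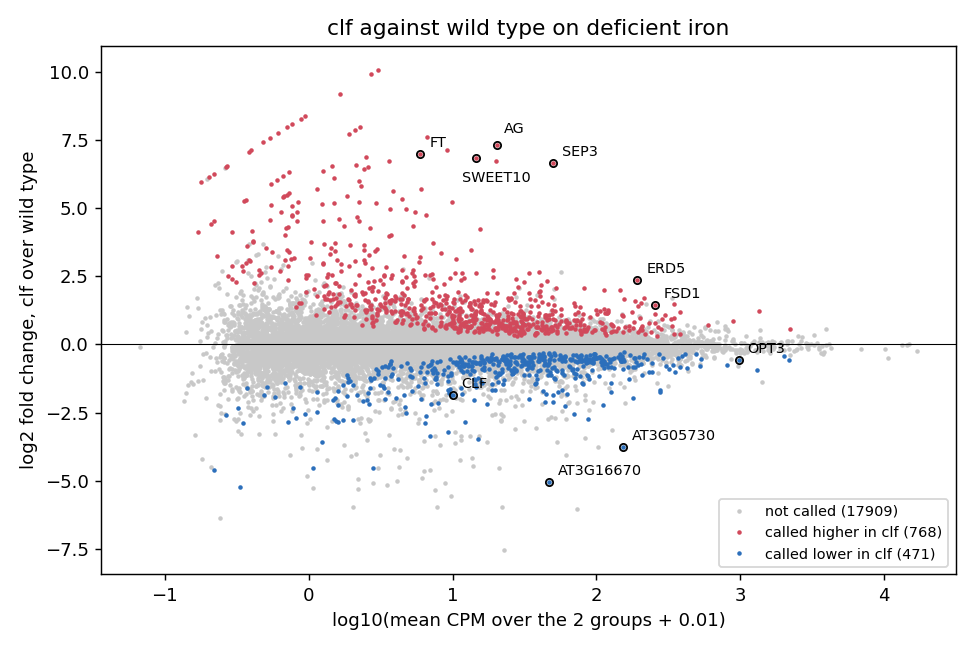
Each point is 1 of 19148 genes tested, with the log10 of its mean CPM over both groups on deficient iron (plus 0.01) on the x axis and its log2 fold change of clf over wild type on the y axis. The 768 genes called higher (red) reach far larger fold changes at low levels than the 471 called lower (blue), and SEP3, AG, FT and SWEET10 lie near a log2 fold change of 7.

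The mutated gene itself was measured first. CLF (AT2G23380, chr2:9955092-9960386, plus strand, TAIR10.1) was at 15.2, 14.6 and 17.1 CPM in wild type libraries 1 to 3 and at 3.28, 4.24 and 5.40 CPM in clf libraries 1 to 3. All 3 clf libraries lay below all 3 wild-type libraries, and the log2 fold change was -1.86 ± 0.22 (SE, n = 3 and 3, edgeR adjusted p = 0.00128). Counts over the whole gene do not say which part of the transcript remained. SWN was at 28.3 to 34.3 CPM in wild type and 27.9 to 33.9 CPM in clf, with a log2 fold change of 0.01 ± 0.12. Of 23 tested Polycomb and trithorax group genes, 1 was higher and 1 was lower, against 4.01% and 2.46% of all genes tested. The other 21 did not pass. The gene called higher was MEA, the methyltransferase of the same family known from endosperm, with 3 counts in all in wild type and 148 in clf on deficient iron, a ratio of 45.8 (95% exact binomial interval 15.4 to 224, counting error only). EMF2 and VRN2, partners of CLF in the complex, FIE and MSI1, its shared subunits, LHP1, a reader of the mark, and REF6, a demethylase that removes it, all had log2 fold changes between -0.09 and 0.09.

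The floral MADS list had the largest median of the lists. It holds genes that specify the organs of the flower and other MADS-box genes, such as AGL17, AGL24 and AGL42. Of 24 genes, 15 passed the count filter, 11 were called higher and 0 lower, and the median log2 fold change was 2.97, against -0.01 over all genes tested. No gene was called lower by DESeq2 either, and 0 of the 15 had an unadjusted p under 0.05 in that direction. Values of clf lay above wild type without overlap for 13 of 15, against 12.7% of all genes tested. The 9 genes not tested include CAL and AGL13, which had no count in the 6 libraries.

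AG, which specifies stamens and carpels, lies at chr4:10382856-10388539 on the plus strand. It was at 0.552, 0.0821 and 0.103 CPM in wild type libraries 1 to 3 and at 42.7, 41.3 and 36.6 CPM in clf. Each clf library lay far above each wild-type library, and the log2 fold change was 7.31 ± 0.46 (adjusted p = 1.78e-05). SEP3, a cofactor of the floral organ factors (chr1:8593536-8596123, minus strand), was at 1.03, 1.03 and 0.861 CPM in wild type and 103, 101 and 91.7 CPM in clf. Its log2 fold change of 6.65 ± 0.22 had an adjusted p of 2.5e-07, and neither group's libraries spread by more than a small part of that gap. SHP2, a carpel gene, had 1 count in all in wild type and 392 in clf, a ratio of 364 (95% interval 64.9 to 14400). STK, an ovule gene, had no count in wild type and 95 in clf, which puts it at least 29.4-fold higher against a floor of 3 counts over the group. AP3 and PI, the petal and stamen pair, rose as well: AP3 had 2 counts in wild type and 211 in clf, and PI went from 1.14, 1.35 and 1.93 CPM to 5.40, 5.78 and 5.15 CPM, a log2 fold change of 1.88 ± 0.25 (adjusted p = 0.00228). AGL17 had 1 count in wild type and 103 in clf (ratio 95.5, 95% interval 16.8 to 3810), and AGL42 had 3 and 105 (ratio 32.5, 95% interval 10.8 to 160.0). FUL (2.97 ± 0.46), SHP1 (2.69 ± 0.60) and AGL24 (1.16 ± 0.23) were the other genes called higher. SHP1 lost its call when 6 of the 12 libraries were left out singly and AGL24 when 4 were. Per length of gene, on the authors' FPKM scale, the mean level in clf was 101 for SEP3, 27.9 for AG, 4.34 for SHP2, 5.44 for PI and 2.6 for AP3. SEP1 (2.25 ± 0.67, adjusted p = 0.0748) and SEP4 (0.85 ± 0.25, adjusted p = 0.0718) did not pass. In a bulk shoot sample, more cells that express a gene and more RNA in each cell cannot be told apart.

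Most markers of the flower's own tissues were too low to be tested. Of 9 anther and carpel genes only SPT and 1 more passed the count filter, and MS1, MS2 and INO were at 0 in all 6 libraries. Over the 9 genes the summed level was 12.7 to 14.4 CPM in wild type and 12.3 to 14.8 CPM in clf. Of the 2 tested genes, SPT had a positive log2 fold change and the other one of -0.20. With no filter on low counts, 6 of the genes were tested and 1 was called higher, where 713 of 24571 genes were. The median log2 fold change was then 2.52, which includes genes of very low counts. SPT, a carpel margin factor that leaves also express, was higher in clf at 2.74 to 2.96 CPM against 0.884 to 1.21 CPM (log2 1.496 ± 0.28, adjusted p = 0.0116).

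**Figure D2:**
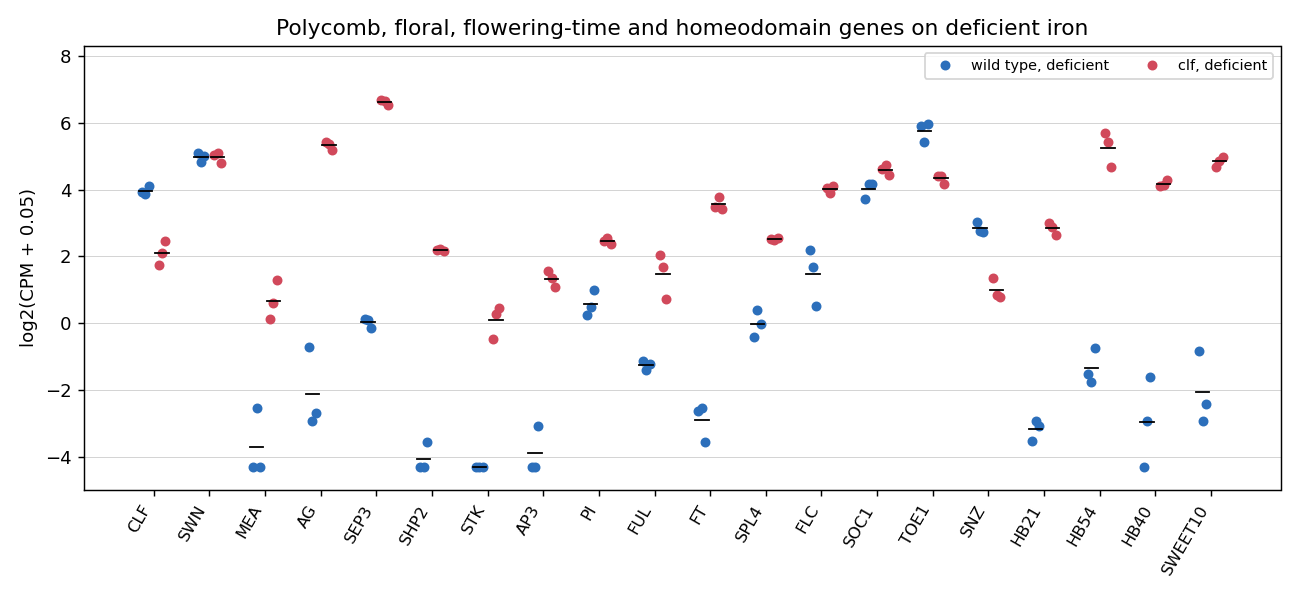
Each point is 1 library on deficient iron, the y axis is log2(CPM + 0.05) and the black bar is the mean of 3 libraries. AG, SEP3, SHP2, FT and the homeodomain genes HB21, HB54 and HB40 separate the genotypes by the widest gaps, CLF, TOE1 and SNZ are lower in clf, and SWN overlaps.

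Flowering-time genes moved in both directions: of 22 tested, 4 were called higher and 3 lower, against 4.01% and 2.46% of all genes tested, and 15 did not pass. The median log2 fold change was 0.02 and lay between -0.10 and 0.14 with 1 library left out. FT, the mobile flowering signal made in leaves (chr1:24331373-24333999, plus strand), was at 0.111, 0.123 and 0.0344 CPM in wild type and 11.2, 13.7 and 10.5 CPM in clf (log2 6.99 ± 0.41, adjusted p = 1.48e-05). No clf library came near the wild-type range. FLC, a MADS-box repressor of FT and a well-known Polycomb target, was higher too, at 16.5, 14.9 and 17.0 CPM against 4.53, 3.12 and 1.38 CPM (2.42 ± 0.35, adjusted p = 0.00298). SPL4, which promotes the floral transition, was at 5.56 to 5.79 CPM against 0.700 to 1.27 CPM (2.55 ± 0.32). SOC1, a floral integrator, was higher by 0.57 ± 0.14 with an adjusted p of 0.0419, and that call was lost in 10 of 12 fits with 1 library left out. The genes called lower were TOE1 (-1.44 ± 0.15), SNZ (-1.86 ± 0.20) and SMZ (-1.60 ± 0.37), which belong to 1 family of AP2-type repressors of flowering; SMZ lost its call in 4 of 12 fits with 1 library left out. TOE1 was at 59.6, 42.4 and 61.6 CPM in wild type and 21.3, 21.2 and 18.0 CPM in clf, with no overlap. CO, FD, FRI, FLM, MAF2 and MAF3 had log2 fold changes between -0.15 and 0.55, and their adjusted p ran from 0.505 to 0.982.

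Promoters of 4 of the genes with the largest increases are shown because AG, SEP3 and FT are among the floral and flowering genes described here and SWEET10, a sugar transporter gene, was among the 12 largest increases. Each is the 250 bases before the annotated start in RefSeq's TAIR10.1, on the gene's own strand, 5′ to 3′, at chr4:10382606-10382855 for AG, chr1:8596124-8596373 for SEP3, chr1:24331123-24331372 for FT and chr5:20658002-20658251 for SWEET10. Capitals mark the GA repeat GAGAGAG read on either strand, where overlapping copies run together; SEP3 has none.
AG: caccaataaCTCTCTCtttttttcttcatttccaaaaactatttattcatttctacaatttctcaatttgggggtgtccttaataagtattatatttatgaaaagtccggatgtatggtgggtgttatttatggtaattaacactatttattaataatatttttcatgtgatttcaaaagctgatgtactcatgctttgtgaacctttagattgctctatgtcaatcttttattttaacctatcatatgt
SEP3: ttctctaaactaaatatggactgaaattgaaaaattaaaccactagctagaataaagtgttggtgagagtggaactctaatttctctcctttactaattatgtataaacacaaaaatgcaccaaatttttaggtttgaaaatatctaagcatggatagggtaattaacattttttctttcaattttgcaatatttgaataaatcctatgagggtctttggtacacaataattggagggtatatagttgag
FT: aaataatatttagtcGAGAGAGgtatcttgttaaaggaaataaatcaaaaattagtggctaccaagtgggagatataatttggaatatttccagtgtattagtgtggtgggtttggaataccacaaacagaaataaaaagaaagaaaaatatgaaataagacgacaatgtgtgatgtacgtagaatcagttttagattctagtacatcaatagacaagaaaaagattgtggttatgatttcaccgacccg
SWEET10: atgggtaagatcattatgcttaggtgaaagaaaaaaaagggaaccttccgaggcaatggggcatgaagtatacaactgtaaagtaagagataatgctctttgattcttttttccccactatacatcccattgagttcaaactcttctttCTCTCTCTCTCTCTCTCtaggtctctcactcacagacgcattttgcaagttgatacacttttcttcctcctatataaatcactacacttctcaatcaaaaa
The GA repeat was in 5.05% of 752 promoters of genes called higher, 7.51% of 466 of genes called lower and 7.23% of 18715 of genes tested. The core telobox AAACCCT was in 4.39%, 3.00% and 6.25% of the same promoters, and the G-box CACGTG was in 6.38%, 9.01% and 7.44%. A match is a description of these windows only.

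SWEET10 was at 0.515, 0.0821 and 0.138 CPM in wild type and 25.7, 29.1 and 31.6 CPM in clf (6.83 ± 0.46, adjusted p = 2.84e-05). Of 10 tested SWEET genes, SWEET10 and SWEET1 (1.57 ± 0.26) were higher and SWEET15, a senescence-associated member, was lower (-1.83 ± 0.35, adjusted p = 0.0115). The shares of all genes tested were 4.01% higher and 2.46% lower.

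Homeodomain genes of the HD-ZIP classes moved in both directions. Of 22 tested HD-ZIP I and II genes, 4 were called higher and 2 lower, against 4.01% and 2.46% of all genes tested, with a median log2 fold change of 0.13 (0.13 to 0.31 with 1 library left out). Without the libraries that stood apart in clock genes, 8 were called higher and 2 lower, where 1754 and 1466 of 19106 genes tested were. HB21 and HB40, known for holding axillary buds dormant, were among the increases. HB40 was at 0, 0.0821 and 0.276 CPM in wild type and 17.2, 17.5 and 19.6 CPM in clf (7.14 ± 0.56, adjusted p = 9.67e-05). HB54 was at 0.295, 0.246 and 0.551 CPM against 51.1, 42.9 and 25.2 CPM (6.73 ± 0.48), and HB21 rose by 6.72 ± 0.38. HAT9 rose by 1.82 ± 0.33, while HB-2, a shade-responsive gene, was lower (-1.44 ± 0.27, adjusted p = 0.0108). HAT3, a leaf polarity factor, was also called lower (-0.66 ± 0.16, adjusted p = 0.0382), a call lost in 8 of 12 fits with 1 library left out.

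KNOX and meristem genes gave 1 call, higher in clf, in 14 tested genes (4.01% of all genes tested were called higher). BLR, a partner of KNOX proteins in the meristem, was at 13.7, 11.7 and 11.04 CPM in clf and 6.996, 8.79 and 7.03 CPM in wild type (0.67 ± 0.15, adjusted p = 0.0222). Its call was lost in 4 of 12 fits with 1 library left out and in the fit of the 6 deficient-iron libraries alone. DESeq2 called 4 genes of the list higher, where it called 1158 of 19148 genes higher. STM, which maintains the meristem, was at 0.0736, 1.31 and 0.861 CPM in wild type and 1.66, 1.07 and 1.71 CPM in clf, so the groups overlapped (0.98 ± 0.64, adjusted p = 0.448). KNAT1 missed the threshold (1.08 ± 0.30, adjusted p = 0.0617), as did KNAT3 and KNAT4. Among 16 leaf polarity and TCP genes, edgeR and DESeq2 each called 0, and 2 had an unadjusted p under 0.05.

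Outside the lists, the largest increases were AT5G60140, annotated as an AP2/B3-like factor, and SCPL43, a serine carboxypeptidase-like gene. Neither had a count in wild type, and against a floor of 3 counts over the group they were at least 160.2-fold and 144-fold higher in clf. AT5G39220, an alpha/beta-hydrolase gene, went from 0, 0.123 and 0.0689 CPM to 11.9, 11.5 and 16.5 CPM (7.62 ± 0.71). AO4, an aldehyde oxidase, and AT1G03710, a cystatin-like gene, completed the 12 largest increases, at 6.50 ± 0.80 and 5.69 ± 0.50. All 12 of these kept their call in each of the 12 fits with 1 library left out.

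The 12 largest decreases began with AT3G16670. This gene, annotated in the Pollen Ole e 1 allergen and extensin family (chr3:5681380-5682362, plus strand), was at 94.2, 109 and 68.9 CPM in wild type and 1.48, 0.628 and 5.98 CPM in clf (-5.05 ± 0.83, adjusted p = 0.00571). AT3G05730, a defensin-like gene, fell from 259.8, 337 and 259 CPM to 19.0, 14.9 and 29.03 CPM (-3.76 ± 0.35, adjusted p = 0.000265). In both genes the clf libraries lay far below wild type, with library 3 the highest of the 3. ACS4, an enzyme of ethylene synthesis, fell by 4.54 ± 0.69 on the log2 scale. CRK12, a cysteine-rich receptor kinase, fell by 3.35 ± 0.34. MAM3, a chain-elongation enzyme of aliphatic glucosinolates, was at 7.22, 18.6 and 8.23 CPM in wild type and 1.304, 2.07 and 2.04 CPM in clf (-2.64 ± 0.43, adjusted p = 0.00523). It was the only call among 14 tested genes of that pathway, where 2.46% of all genes tested were called lower. A positive log2 fold change was found for 10 of the 14 and a negative one for 4, with a median of 0.22. GH9C1, AT4G25090, AT1G07500, AT5G03350, PCC1 and AT3G21330 made up the rest of the 12 largest decreases with SESA5; with 1 library left out, GH9C1 and AT1G07500 lost their calls in 3 of 12 fits each, AT4G25090 in 2 and PCC1 in 1. SESA5, a seed storage albumin, was at 18.3, 17.4 and 14.2 CPM in wild type and 0.764, 0.660 and 3.93 CPM in clf, and its call was lost in 9 of 12 fits with 1 library left out (adjusted p = 0.0467). The 18 seed genes together summed to 36.6 to 68.6 CPM in wild type and 1.66 to 19.8 CPM in clf on deficient iron, with SESA3, SESA4, CRA1, CRU2 and CRU3 at 0; on sufficient iron the sums were 3.37 to 4.27 CPM and 0.873 to 1.95 CPM. The part of seed transcripts in these decreases was not tested.

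Among iron-containing and iron-storing proteins, NEET, FSD1, FER1 and FER4 were higher in clf than in wild type on deficient iron. Of 8 tested genes, 4 were called higher (the share of all genes tested is 4.01%) and 0 lower, by edgeR and by DESeq2 alike, and 0 of the 8 had an unadjusted p under 0.05 in the lower direction. The median log2 fold change was 0.89, and 0.54 and 0.53 without clf library 1 or 2. With 1 library left out, 2 to 4 of the genes were called. Without the libraries that stood apart in clock genes, 5 were called higher and 1 lower, where 1754 and 1466 of 19106 genes tested were. NEET, an iron-sulfur protein of chloroplasts and mitochondria (chr5:21009347-21010345, plus strand), was at 1.36, 0.944 and 0.999 CPM in wild type and 9.17, 5.97 and 4.36 CPM in clf (2.55 ± 0.32, adjusted p = 0.00185). FSD1, an iron superoxide dismutase (chr4:12884300-12887011, minus strand), was at 155, 116.5 and 136 CPM in wild type and 479.8, 383 and 254 CPM in clf (1.46 ± 0.20, adjusted p = 0.00256). FER1, the main leaf ferritin, was at 5.30, 4.93 and 4.58 CPM against 21.0, 14.1 and 11.9 CPM (1.66 ± 0.42, adjusted p = 0.0430), and FER4, another ferritin, at 2.25, 1.48 and 1.79 CPM against 5.31, 4.65 and 2.35 CPM (1.15 ± 0.30, adjusted p = 0.0457). In these 4 genes clf library 3, which stood apart in clock genes, was the closest to wild type. No clf library overlapped the wild-type range, which held for all 768 genes called higher. NEET and FSD1 kept their call in all 12 fits with 1 library left out, with adjusted p up to 0.0122 and 0.0142. FER1 lost it in 7 of them, with an adjusted p of up to 0.156, and FER4 in 10, with up to 0.171. FER3 (0.63 ± 0.69), the frataxin gene FH, FSD2 and FSD3 did not pass.

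Low iron lowered these 4 genes in both genotypes. NEET averaged 51.7 ± 11.3 CPM (SD, n = 3) in wild type and 59.5 ± 15.9 CPM in clf on sufficient iron, against 1.102 ± 0.23 and 6.50 ± 2.45 CPM on deficient iron. FSD1 averaged 887 ± 9.95 and 885 ± 76.8 CPM on sufficient iron, against 136 ± 19.4 and 372 ± 113 CPM. On sufficient iron none of the 8 genes was called between the genotypes, where 4.91% of all genes were (3.59% higher, 1.32% lower). The test of the difference between the genotype effects on the 2 supplies did not pass for NEET (log2 2.34 ± 0.42, adjusted p = 0.201), FSD1 (1.46 ± 0.28, adjusted p = 0.254), FER1 (adjusted p = 0.511) or FER4 (adjusted p = 0.511).

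Iron transport genes, which include carriers, nicotianamine synthases and ferric reductases, divided into genes higher and genes lower in clf. Of 23 tested genes of iron transport, 5 were called higher and 3 lower, against 4.01% and 2.46% of all genes tested. The median log2 fold change was 0.10, from 0.02 to 0.18 with 1 library left out. YSL1, a carrier of iron bound to nicotianamine, was at 2.099, 1.52 and 2.41 CPM in wild type and 15.8, 12.6 and 7.14 CPM in clf (2.55 ± 0.29, adjusted p = 0.00104). NAS3, a synthase of nicotianamine, was at 0.957, 0.575 and 0.517 CPM against 7.64, 4.55 and 2.32 CPM (2.81 ± 0.46, adjusted p = 0.00577). Both were again lowest among clf in library 3, and neither overlapped wild type, as in every gene called higher. NRAMP1, a manganese and iron importer, rose by 1.16 ± 0.17, and NRAMP3, which releases iron from the vacuole and lies within 500 kb of CLF, rose by 0.92 ± 0.12. VTL1, of the vacuolar iron transporter family, had 3 counts in wild type and 33 in clf (ratio 10.2, 95% interval 3.20 to 52.0), and its call was lost in 4 of 12 fits with 1 library left out. On sufficient iron YSL1, NRAMP1 and NRAMP3 were called higher in clf as well, by 1.17, 1.15 and 0.70. The promoters of FER1 (chr5:230052-230301, minus strand) and YSL1 (chr4:12523936-12524185, plus strand) are shown as examples from the storage and transport lists. Each is the 250 bases before the start in TAIR10.1, with the core telobox AAACCCT, read on either strand, in capitals. Both hold this motif, which was in 4.39% of promoters of genes called higher and 6.25% of those of all genes tested.
FER1: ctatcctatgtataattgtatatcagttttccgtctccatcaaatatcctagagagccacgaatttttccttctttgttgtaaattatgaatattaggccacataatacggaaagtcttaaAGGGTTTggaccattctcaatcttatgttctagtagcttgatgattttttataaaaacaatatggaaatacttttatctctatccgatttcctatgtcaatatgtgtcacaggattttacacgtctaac
YSL1: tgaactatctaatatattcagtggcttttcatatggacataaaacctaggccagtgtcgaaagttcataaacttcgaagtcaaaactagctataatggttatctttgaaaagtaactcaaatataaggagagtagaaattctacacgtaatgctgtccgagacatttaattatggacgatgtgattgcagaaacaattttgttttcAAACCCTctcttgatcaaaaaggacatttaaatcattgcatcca

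The 3 iron transport genes called lower are genes that low iron raised in wild type. OPT3, which loads iron into the phloem, was at 1251, 1143 and 1088 CPM in wild type and 767, 782 and 799 CPM in clf (-0.57 ± 0.12, adjusted p = 0.0193), against 110.3 ± 13.9 and 137 ± 16.8 CPM (SD) on sufficient iron. NAS4 was at 63.0, 47.1 and 78.0 CPM against 26.1, 31.2 and 30.2 CPM (-1.104 ± 0.27, adjusted p = 0.0338). FRO3, a ferric reductase of mitochondria, was at 493, 403 and 396 CPM against 216, 237 and 307 CPM (-0.77 ± 0.19, adjusted p = 0.0426). The clf libraries lay below every wild-type library for all 3, as for 470 of the 471 genes called lower. With library totals in place of TMM none of the 3 was called, and with 1 library left out OPT3 lost its call in 3 of 12 fits and NAS4 and FRO3 in 8 each. The change from sufficient to deficient iron, which shares its deficient-iron libraries with this comparison, was 3.40 in wild type and 2.51 in clf for OPT3, 5.03 and 4.24 for NAS4, and 4.30 and 3.69 for FRO3 (log2, all 6 called; of all genes, 9.12% were called in wild type, 4.61% higher, and 1.52% in clf, 0.752% higher). For the difference between genotype effects the adjusted p was 0.262 for OPT3, 0.724 for NAS4 and 0.675 for FRO3.

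**Figure D3:**
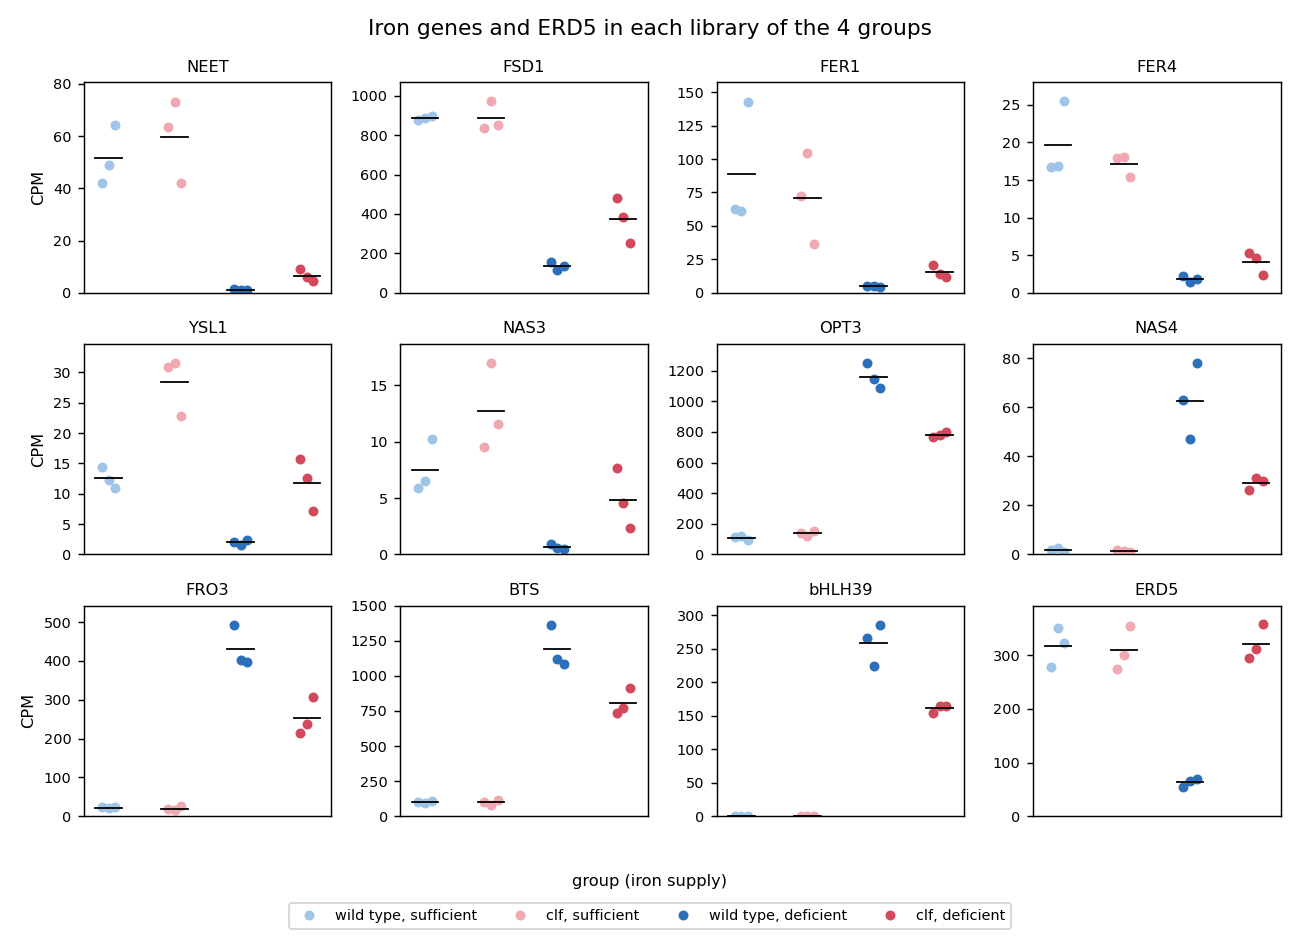
Points are single libraries in CPM on a linear axis from 0, grouped as wild type and clf on sufficient iron and wild type and clf on deficient iron, and black bars are means of 3. NEET, FSD1, FER1 and FER4 fall on deficient iron to a higher level in clf than in wild type, OPT3, NAS4 and FRO3 rise to a lower level in clf, and ERD5 falls in wild type and not in clf.

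Regulators of the iron response gave no call. Of 13 tested genes of iron signalling, 0 passed with edgeR and 3 had an unadjusted p under 0.05. DESeq2 called 4 lower and 0 higher, where it called 845 of 19148 genes lower. Without the libraries that stood apart in clock genes, edgeR called 5 lower, where it called 1466 of 19106 genes lower. Of the 13, 10 had a negative log2 fold change, and the median was -0.40. BTS, a ubiquitin ligase that restrains the response, was at 1365, 1117 and 1082 CPM in wild type and 733, 770.1 and 910.3 CPM in clf, and lay just outside the threshold (-0.56 ± 0.15, adjusted p = 0.0501). bHLH38, bHLH39 and bHLH100, close paralogs among which counting could split reads, had log2 fold changes of -0.66, -0.68 and -0.77 with adjusted p from 0.162 to 0.342. bHLH39 was at 267, 225 and 285 CPM in wild type and 154, 165 and 164 CPM in clf, with no overlap, and averaged 0.299 and 0.373 CPM on sufficient iron. PYE, a repressor of iron storage genes, was at 36.0 to 41.2 CPM and 25.4 to 31.2 CPM (-0.40 ± 0.29, adjusted p = 0.507). Of the 13, low iron raised 8 in wild type, where 4.61% of all genes tested were called higher, and 6 in clf, where 0.752% were.

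Among 11 tested genes of iron acquisition, which act in the root, edgeR and DESeq2 each called 0, and 2 had an unadjusted p under 0.05. IRT1, the main iron importer of roots, was at 22.4, 29.1 and 43.5 CPM in wild type and 19.4, 29.9 and 8.14 CPM in clf, and FRO2, its ferric reductase, at 28.2, 33.6 and 42.5 CPM against 19.5, 29.3 and 11.1 CPM. Beside them, 1 of 14 tested root markers was called lower (2.46% of all genes tested were). A negative log2 fold change was found for 13 of the 14, with a median of -1.11 that lay between -1.83 and -0.55 with 1 library left out, and the sum over 21 markers was 444 to 559 CPM in wild type and 338 to 420.1 CPM in clf, with none at 0 in all 6 libraries. COBL9, a root-hair gene, was the marker called (-2.88 ± 0.74, adjusted p = 0.0432), and that call was lost in 11 of 12 fits with 1 library left out. The part of root material in the acquisition genes was not tested.

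Photosynthesis genes gave no call between the genotypes on deficient iron. Of 42 photosystem and light-harvesting genes, edgeR called 0, 7 had an unadjusted p under 0.05, and DESeq2 called 1 higher and 1 lower; the median log2 fold change was -0.15, from -0.19 to -0.05 with 1 library left out. Low iron lowered 35 of the 42 in wild type (4.52% of all genes were called lower there) and 20 in clf (0.768%). Of 26 genes of chlorophyll and heme synthesis, PORC, a light-dependent protochlorophyllide reductase, was lower at 168, 150.2 and 144 CPM against 221, 210.3 and 220.4 CPM (-0.50 ± 0.10, adjusted p = 0.0122). CHLI1, a subunit of magnesium chelatase, was also lower (-0.33 ± 0.08, adjusted p = 0.0383), and lost its call in 9 of 12 fits with 1 library left out. These were the 2 calls among the 26 genes, where 2.46% of all genes tested were called lower. Without the libraries that stood apart in clock genes, 10 of the 26 were called lower and 3 higher, where 1466 and 1754 of 19106 genes tested were. Of 14 copper genes edgeR called 0, DESeq2 called 1, and 2 had an unadjusted p under 0.05.

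**Figure D4:**
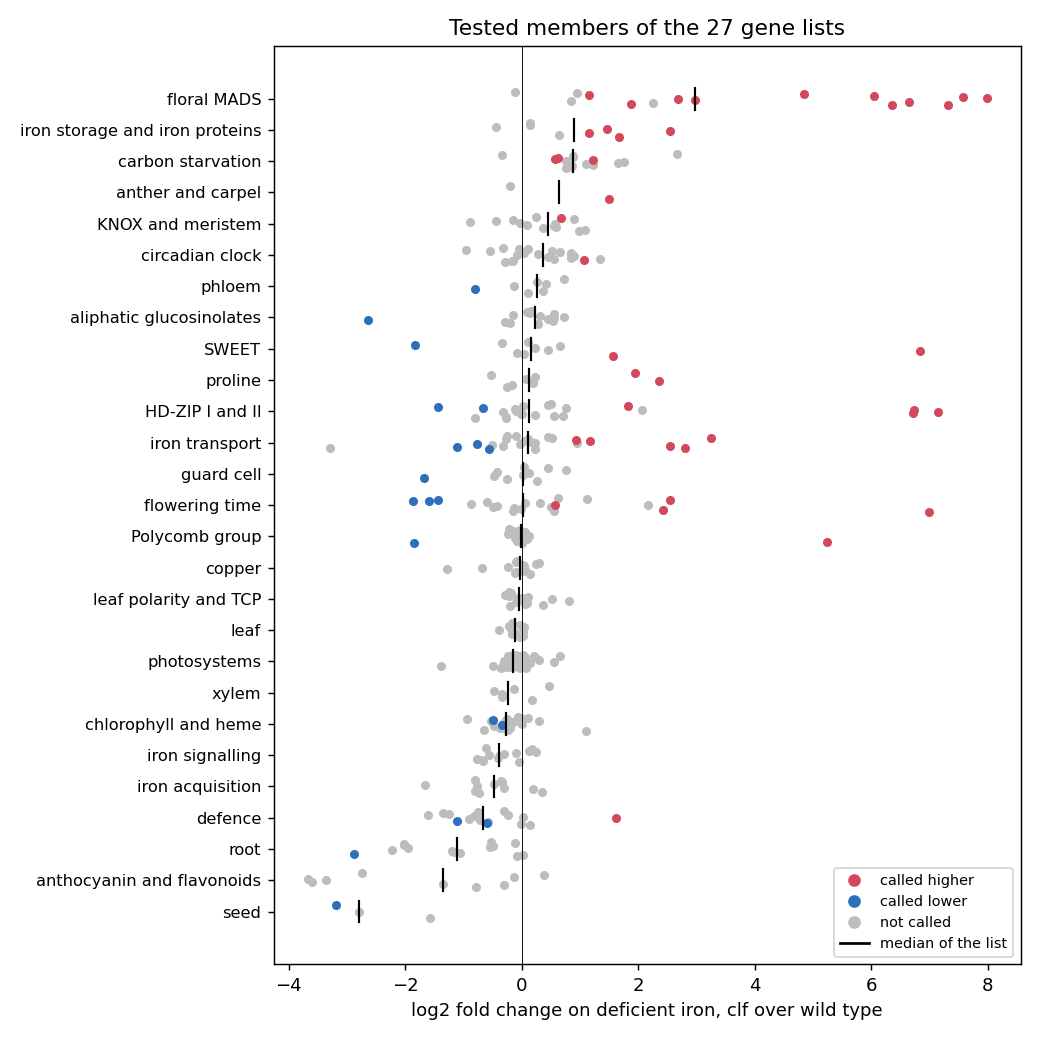
Each point is a tested member of 1 of 27 gene lists, placed by its log2 fold change of clf over wild type on deficient iron, and the black tick is the median of the list. The median of the floral MADS genes lies at 2.97, iron storage and carbon starvation genes lie mostly to the right, and root, anthocyanin and seed genes mostly to the left.

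ERD5, a proline dehydrogenase (chr3:12448636-12451556, minus strand), was the 1 gene whose genotype effect differed between the iron supplies (0.00522% of genes tested). On deficient iron it was at 53.7, 66.3 and 69.1 CPM in wild type and 295, 311 and 359 CPM in clf (2.35 ± 0.15, adjusted p = 1.78e-05). On sufficient iron it was at 278, 352 and 322 CPM in wild type and 274, 300 and 354 CPM in clf (-0.04, adjusted p = 0.923). The 3 wild-type libraries on deficient iron lay below all 9 others, which overlapped. The difference between the effects was 2.39 ± 0.20 on the log2 scale with an adjusted p of 0.00357. ProT3, a proline transporter, was the other of 8 tested proline genes called higher (1.95 ± 0.43, adjusted p = 0.0245, lost in 5 of 12 fits with 1 library left out), where 4.01% of all genes tested were. P5CS1 and P5CS2, which make proline, had log2 fold changes of -0.25 and -0.17.

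No other gene passed that test, and those given here are examples rather than the next in order. AT3G48390 and GRP3S, with an adjusted p of 0.0924 and 0.0959, come before all but the first of them. AT1G80440, a kelch repeat gene, was at 106, 102.5 and 105 CPM in wild type and 336, 279 and 297 CPM in clf on deficient iron (1.54 ± 0.10), and the difference between supplies had an adjusted p of 0.0853. SIP2, annotated as seed imbibition 2, was at 91.8, 95.4 and 87.3 CPM against 273, 291 and 270.5 CPM, and averaged 229 CPM in both genotypes on sufficient iron (difference 1.60, adjusted p = 0.177). PCC1 was at 116, 123 and 118 CPM in wild type and 25.9, 20.6 and 14.2 CPM in clf on deficient iron, against means of 7.93 and 14.4 CPM on sufficient iron (difference -3.417, adjusted p = 0.273). AT3G22235, annotated as a cysteine-rich stress tolerance protein, was at 195.5, 164.5 and 188 CPM in wild type and 46.7, 39.3 and 30.6 CPM in clf on deficient iron (-2.23 ± 0.33). Its difference between supplies was -2.735, with an adjusted p of 0.177. Across all genes tested, 1416 had an unadjusted p under 0.05 for the difference.

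Genes of carbon starvation, which leaves raise when sugars run low, were mostly higher in value in clf. Of 15 tested, 3 were called higher (4.01% of all genes were) and 0 lower, and 14 had a positive log2 fold change. The median was 0.88, against -0.01 over all genes, and 0.50 without clf library 3, which stood apart in clock genes. IVD, an enzyme of branched-chain amino acid breakdown, was at 29.8, 32.4 and 30.0 CPM in wild type and 60.8, 63.2 and 92.2 CPM in clf (1.23 ± 0.18, adjusted p = 0.00309). TPS9 (0.62 ± 0.13) and TPS8 (0.57 ± 0.14), of the trehalose phosphate synthase family, were the others, and lost their calls in 3 and 5 of 12 fits with 1 library left out. ASN1, DIN10 and SEN1 had log2 fold changes of 0.75, 0.81 and 1.098 and adjusted p of 0.434, 0.294 and 0.113. DIN10, a raffinose synthase family gene, was at 422, 633 and 452 CPM in wild type and 556, 524 and 1565 CPM in clf, so that library 3 of clf and library 2 of wild type, the ones that stood apart in clock genes, were the highest of their groups. On sufficient iron none of the 15 was called and the median was -0.05. Several of these genes follow the day. Of 22 clock genes 1 was called, where 4.01% of all genes tested were called higher, and their median log2 fold change was 0.36. The library of each group that stood apart adds to the spread of clock genes, so this count cannot decide on sampling time. PRR9 was higher (1.06 ± 0.27, adjusted p = 0.0441), a call lost without the libraries that stood apart and in 8 of 12 fits with 1 library left out. The part of sampling time in the carbon starvation genes was not tested. Without the libraries that stood apart, 8 of the 15 were called higher, where 1754 of 19106 genes tested were.

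Among 16 tested defence genes, 1 was called higher and 2 lower, against 4.01% and 2.46% of all genes tested. The log2 fold change was negative for 13 and positive for 3, and the median was -0.66. That median was -0.30 without wild type library 2, and without clf library 1 none was called lower. PBS3, which conjugates isochorismate in salicylic acid synthesis, was at 15.4, 15.1 and 7.99 CPM in clf and 4.27, 3.20 and 5.06 CPM in wild type (1.61 ± 0.27). ICS1, which makes isochorismate, was lower at 13.3, 15.8 and 13.8 CPM against 21.3, 22.7 and 21.3 CPM (-0.61 ± 0.11, adjusted p = 0.01), as was EDS1, a hub of immune signalling (-1.11 ± 0.23, adjusted p = 0.0174, lost in 3 of 12 fits with 1 library left out). Of 9 anthocyanin and flavonoid genes edgeR and DESeq2 called 0 and 4 had an unadjusted p under 0.05. Their median was -1.36, and -0.38 without wild type library 1. Without the libraries that stood apart in clock genes, edgeR called 3 lower, where it called 1466 of 19106 genes lower. Among markers of other cell types, the guard-cell sum was 47.1 to 57.6 CPM in wild type and 31.1 to 34.0 CPM in clf. KAT1, a guard-cell potassium channel, was lower by 1.68 ± 0.34 (log2 -1.68, adjusted p = 0.0159, lost in 4 of the 12 fits). It was the 1 call among 10 tested guard-cell markers, where 2.46% of all genes tested were called lower. A positive log2 fold change was found for 6 of the 10 and a negative one for 4, with a median of 0.03. Phloem markers summed to 148 to 221 CPM and 189 to 231 CPM, with SEOR1 called lower and that call lost in 9 of 12 fits with 1 library left out. Among the 7 phloem markers, 5 had a positive log2 fold change and 2 a negative one, with a median of 0.27. Xylem markers summed to 42.6 to 54.9 CPM and 43.2 to 53.9 CPM, with 0 called by edgeR and DESeq2 and 1 at an unadjusted p under 0.05.

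Most genes called on deficient iron had the same direction on sufficient iron, in other libraries of the same genotypes. Of the 768 genes higher in clf, 722 (94.0%) had a positive log2 fold change on sufficient iron, where 66.7% of all genes tested had the same sign on both supplies, and 384 (50%) were called higher there, where 3.59% of all genes were. Those 384 are 55.9% of the 687 genes called higher on sufficient iron. Of the 471 genes lower, 429 (91.1%) had a negative log2 fold change and 130 (27.6%) were called lower, which is 51.4% of the 253 called there. None was called in opposite directions. SEP3 differed by 6.65 on deficient and 6.62 on sufficient iron, FT by 6.99 and 7.25, AG by 7.31 and 7.82 and AT3G16670 by -5.05 and -6.38. Across the 19148 genes the effects had a Pearson r of 0.67 and a Spearman rho of 0.49, as a description across genes, which share libraries within each comparison and are not independent.

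**Figure D5:**
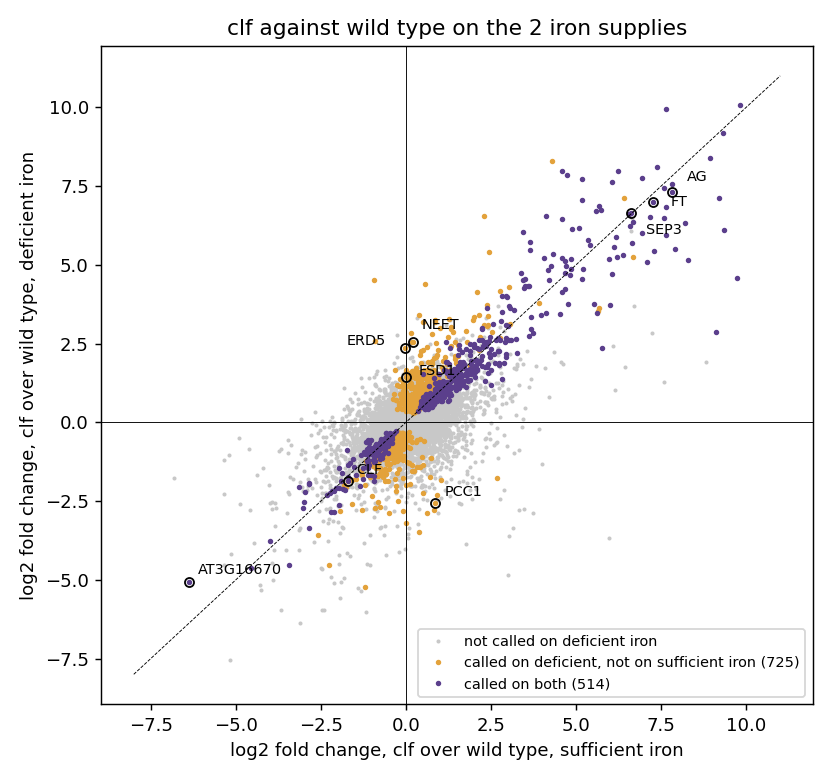
Each point is a gene tested, with its log2 fold change of clf over wild type on sufficient iron on the x axis and on deficient iron on the y axis; the dashed line marks equal values. SEP3, FT and CLF lie near the line, while AT3G16670, NEET, FSD1 and ERD5 lie above it, of which ERD5 alone passed the test of the difference.

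Neighbouring genes were sometimes called together. Of 752 protein-coding genes called higher, 86 (11.4%) stood next to another gene called higher, in 40 runs of 2 genes and 2 runs of 3. Of 466 called lower, 31 (6.65%) stood in such runs. Over chromosomes 1 to 5, 4.04% of genes tested were called higher and 2.47% lower. The share in runs to be expected from these calls alone was not computed. One run of 3 held AT4G37520 and AT4G37530, peroxidase genes whose likeness could split reads between them, and LBD39, a regulator of nitrogen responses (chr4:17631500-17640925), with log2 fold changes of 1.92, 1.56 and 1.42. Another held ROPGEF7, SIS and BLR (chr5:383153-399125), at 0.79, 1.44 and 0.67, of which ROPGEF7 had an adjusted p of 0.0495 and lost its call in 9 of 12 fits with 1 library left out. AT5G45470, AT5G45480 and AT5G45490 (chr5:18421985-18432430) had log2 fold changes of -0.88, -1.11 and -1.22 and were called lower, AT5G45490 losing its call in 4 of 12 fits with 1 library left out and AT5G45480 in 2. The strand setting of the counting is not given in the sources used here, so reads of overlapping neighbours cannot be told apart.

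Within 500 kb of CLF, with CLF itself left out, 12 of 157 tested genes (7.64%) were higher and 3 (1.91%) were lower, against 4.04% and 2.47% over chromosomes 1 to 5. The increases include AGL17, HAT9 and NRAMP3 described above, and WAVH1, a RING finger gene, at 20.1, 21.7 and 15.2 CPM against 0.994, 3.45 and 2.101 CPM (3.12 ± 0.40). The decreases were AT2G23300, ACS4 and NAI1, a bHLH factor of endoplasmic reticulum bodies (-0.86 ± 0.21, lost in 6 of 12 fits with 1 library left out). An effect of linked DNA and an effect of CLF cannot be told apart for these genes.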

How the data were processed

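Shoot mRNA was sequenced from 12 libraries, 4 groups of 3, with a stranded kit per the labels' protocols. The authors deposited raw counts per gene, and FPKM values, which were used only to compare levels between genes per length. TopHat2 and the genome build TAIR10 are named in the submitters' processing notes, with no versions; no source used here gives the counting tool, its strand setting or the annotation. Gene names, coordinates and promoters came from RefSeq's TAIR10.1, which matched 31912 of 32678 identifiers. Genes passing edgeR's filterByExpr (minimum count 10, minimum total 15) were fitted with edgeR 4.0.16 under R 4.3.3, with TMM scaling, 1 mean per group, all 12 libraries and the quasi-likelihood test; p-values were adjusted by the Benjamini-Hochberg method over 19148 genes, with a threshold of 0.05. The estimated biological coefficient of variation was 0.308. CPM are counts scaled to the TMM-adjusted library size. SE was derived from the test statistic. Ratios of 1 to 3 counts carry exact 95% intervals, and a group at 0 was given a floor of 3 counts over the group; both cover counting error only. DESeq2 1.42.0 and other settings were alternatives. Named genes were CLF and SWN, the 12 largest increases and decreases of at least 5 CPM without overlap, up to 6 called members of each list in each direction, all members of the Polycomb, floral, flowering-time, KNOX and iron lists, the 10 smallest p-values of the difference between supplies, neighbouring runs, and called genes within 500 kb of CLF; other list members and clock genes in the text were picked after their values were seen. The members and the 27 gene lists were chosen with earlier results of these data known. On sufficient iron the deviations of same-numbered samples correlated at 0.52, 0.38 and 0.69. Library 3 stood apart in clock genes in both groups there, with TOC1 at 59.6 CPM in wild type and 34.9 CPM in clf. These correlations therefore cannot show whether the replicate numbers pair the samples. The fit was tested on simulated data.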

Additional observations from a re-analysis of the deposited data

Results flagged for a closer look

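ERD5, the proline dehydrogenase gene, was picked out because the effect of clf differed between the iron supplies by a test of that difference. The difference was 2.39 on the log2 scale, with an adjusted p of 0.00357 by edgeR's quasi-likelihood test. The 3 wild-type libraries on deficient iron were at 53.7 to 69.1 CPM and the 9 other libraries at 274 to 359 CPM.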

How the results depend on the processing

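No gene called on deficient iron changed sign under any alternative tried, while the counts depended on the setting. Against 1239 genes called (768 higher, 471 lower), DESeq2 called 2003 (1158 and 845), the 6 libraries on deficient iron alone gave 619 (404 and 215), a model term marking the clock-gene libraries gave 3146 (1670 and 1476), and leaving those libraries out gave 3220 (1754 and 1466). Library totals in place of TMM gave 269 lower, so that 75% of calls were higher against 62%. With 1 library left out, 504 to 1556 genes were called, 358 to 905 higher and 138 to 651 lower; the counts were 504 without clf library 1, 513 without clf library 2, 762 without wild type library 1 and 689 without wild type library 3. On sufficient iron (940 called, 687 higher, 253 lower), DESeq2 gave 1676 (1038 and 638), the term 2748 (1649 and 1099), leaving out the libraries that stood apart 1958 (1185 and 773), and library totals 136 lower; with 1 library left out the ranges were 386 to 1016, 307 to 723 and 79 to 293. The difference between supplies (1 gene) gave 97 genes by DESeq2, 97 with the term and 97 without those libraries, and 1 to 3 with 1 library left out. The causes were not tested.

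On deficient iron the correlations of same-numbered deviations were 0.22, -0.45 and -0.38. The libraries that stood apart in clock genes carry different numbers there, so these values do not settle the pairing either. With the replicate number as a block, 1189 genes were called there, and among the named genes the calls of FER1, FER4, NAS4, PRR9, COBL9, SESA5, AT2G22660, AT2G23840 and SCA3 were lost, which left 2 of 8 iron storage genes called, while BTS and FRO7 were gained. On sufficient iron the block gave 965 genes called, and for the difference between supplies 1.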

Other observations

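The difference between supplies was called for 97 genes by DESeq2, by edgeR with a model term marking the clock-gene libraries and by edgeR without those libraries, but the genes overlapped in part. DESeq2 shared 46 genes with the term and 38 with the fit without those libraries, and 28 genes were in all 3 sets. Those 28, singled out after their values were seen, include ERD5, NEET, FSD1, SIP2, PCC1 and SWEET15.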
